A study of Mus musculus with 6 samples.

Results

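Enteroendocrine cells are the hormone-secreting cells scattered through the gut epithelium, and the 10 genes described here encode parts of the machinery with which they make and store their products. They comprise the granins Chga, Chgb, Scg2 and Scg3, the granin-like convertase chaperone Scg5, the prohormone processing enzymes Pcsk1, Pcsk2 and Cpe, and the serotonin synthesis enzymes Tph1 and Ddc. The genes were listed by function, with earlier results of these data known, and each was read from the probe set annotated to it alone, taking the one with the highest mean where a gene has several. For 9 of the 10 such a probe set was found, 1 per gene, out of 19938 genes measured in this way, and Pcsk2 was not analysed here. The study compared epithelial cells isolated from the mouse small intestine at E18.5, where E counts days of embryonic development. Of its 6 whole-transcript arrays, 3 held RNA of control embryos and 3 held RNA labelled as Gata4Gata6 double conditional knockout (cKO). Both GATA proteins are zinc finger regulators of transcription in the gut endoderm. The sources used here do not give the strain, the Cre driver, the deleted exons, the controls' genotype or whether each array held a separate animal. The p-values therefore measure only the spread between samples that may be technical repeats.

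Peptide hormones are made as long precursors, packed with granins into dense-core granules, cut by prohormone convertases after pairs of basic residues and trimmed by carboxypeptidase E. In the gut the granins are used as general markers of endocrine cells. Enterochromaffin cells make serotonin from tryptophan in a rate-limiting hydroxylation by TPH1 and a decarboxylation by DDC, load it into granules through a vesicular monoamine transporter and release it towards nerves and neighbouring cells.

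Levels are on a log2 scale, and each change is the mean of the arrays labelled cKO minus the mean of the control arrays, ± SE with n = 3 arrays in each group. Adjusted p-values are limma's with Benjamini-Hochberg adjustment over the 19938 genes, and a gene is called higher or lower at an adjusted p under 0.05. Only changes are compared between genes, not levels, because each probe set has its own scale. In RNA of a mixed epithelium, fewer cells of a type and less RNA per cell cannot be told apart.

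Neither targeted transcript was reduced in the group labelled cKO, and both stood higher there. Gata4 was at 10.95, 10.93 and 10.96 on control arrays 1, 2 and 3 and at 11.34, 11.39 and 11.51 on cKO arrays 1, 2 and 3, so it changed by 0.47 ± 0.075 (adjusted p = 0.0101). Gata6 changed by 0.45 ± 0.065 (adjusted p = 0.0067). Each has 1 probe set, and the sources used here do not say which parts of the genes were deleted. These levels therefore do not bear out the labels, on which the directions of all changes below depend. A pair of arrays, control 3 and cKO 2, stood apart. The hepatocyte marker list was highest on these arrays, with a summed level (log2 of the sum over its 9 measured genes) of 15.13 on control 3 and 16.31 on cKO 2, against 12.87 to 13.98 on the other 4. Control 1, which stays in when the pair is left out, came next at 13.98. Its level of Alb was 12.04, against 6.56 to 7.09 on control 2, cKO 1 and cKO 3. Control 3 was also the only array with a low level of Xist, the X-inactivation RNA of female cells, at 6.18 against 11.74 to 12.42. With the pair left out, Gata4 changed by 0.485 (adjusted p = 0.0646) and Gata6 by 0.465 (adjusted p = 0.0503), so both calls were lost. The Gata4 call was also lost with the array numbers fitted as a block, the replicate block (adjusted p = 0.0521). Single genes named below that lost their call without this pair are given with both values.

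The cyclic AMP response element (CRE, TGACGTCA) is a known control element of several endocrine granule genes, and 4 promoters that hold it or its core close to the start site are shown for that reason. RefSeq promoters (GRCm38.p6, 250 bases before to 50 after the start site) were found for 9 of the 10 genes and not for Cpe. Capitals mark the CRE core TGACGT, read as ACGTCA where it lies on the opposite strand, and a full CRE holds both in overlap. Capitals also mark the GATA motif, spelled with the letters AGATAA, with the letters AGATAG, with the letters TGATAA or with the letters TGATAG on either strand.
Chga: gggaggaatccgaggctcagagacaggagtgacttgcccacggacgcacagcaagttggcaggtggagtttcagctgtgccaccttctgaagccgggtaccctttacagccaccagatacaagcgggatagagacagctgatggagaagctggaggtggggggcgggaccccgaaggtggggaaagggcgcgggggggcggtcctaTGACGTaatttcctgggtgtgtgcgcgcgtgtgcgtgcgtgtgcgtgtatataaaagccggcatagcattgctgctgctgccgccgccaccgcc
Scg2: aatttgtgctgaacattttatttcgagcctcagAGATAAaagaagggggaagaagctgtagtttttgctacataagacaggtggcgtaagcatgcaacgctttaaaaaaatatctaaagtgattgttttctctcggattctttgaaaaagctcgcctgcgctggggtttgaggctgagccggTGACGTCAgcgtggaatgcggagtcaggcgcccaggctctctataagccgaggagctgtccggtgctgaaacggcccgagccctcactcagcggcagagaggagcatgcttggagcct
Chgb: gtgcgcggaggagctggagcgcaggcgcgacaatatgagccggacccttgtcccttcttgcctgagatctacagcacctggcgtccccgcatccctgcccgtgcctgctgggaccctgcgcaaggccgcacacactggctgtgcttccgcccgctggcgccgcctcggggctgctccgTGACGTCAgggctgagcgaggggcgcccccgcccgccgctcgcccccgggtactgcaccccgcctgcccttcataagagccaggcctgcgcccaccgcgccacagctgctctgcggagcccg
Pcsk1: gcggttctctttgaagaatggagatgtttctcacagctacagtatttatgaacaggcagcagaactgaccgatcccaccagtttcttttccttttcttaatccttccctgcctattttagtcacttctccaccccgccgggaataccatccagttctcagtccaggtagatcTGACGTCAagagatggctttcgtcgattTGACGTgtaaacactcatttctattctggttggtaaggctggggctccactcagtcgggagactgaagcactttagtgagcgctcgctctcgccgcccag
The windows are chr12:102554691-102554990, plus strand, for Chga, chr1:79439977-79440276, minus strand, for Scg2, chr2:132781392-132781691, plus strand, for Chgb, and chr13:75089607-75089906, plus strand, for Pcsk1. In each the CRE core lies within 80 bases before the start site: it begins at −44 in Chga, −68 in Scg2, −72 in Chgb, and −78 and −50 in Pcsk1. The core was found in 5 of the 9 genes with a promoter, the fifth being Scg5, against 7.51% of all 32851 mouse promoters of the same length. The full CRE was found in Scg2, Chgb and Pcsk1, against 1.79% of all promoters. The GATA motif was found in Scg2, Scg5 and the upstream one of the 2 Tph1 promoters, against 29.8% of all promoters. These counts are of genes, and Tph1 and Ddc have 2 promoters each, while the percentages are of single promoters. Of the E-box spellings only those with the letters CAGATG, on both strands, and with the letters CATATG were searched. Neither was in any of these windows, against 20.3% of all promoters. Other E-box spellings were not searched, so their absence is not shown. A match is a run of letters and not a measured binding site, and no binding was measured here.

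Of the 9 measured genes, 3 fell on the arrays labelled cKO and 0 rose under limma at an adjusted p under 0.05. Over all genes 7.42% were called lower and 5.52% higher. The 3 were Chga, Scg2 and Tph1, that is, a chromogranin, a secretogranin and the rate-limiting serotonin enzyme. With an unadjusted p under 0.05 Chgb was lower too, and no gene was higher. On all 3 arrays labelled cKO 4 of the 9 genes lay below every control array and 1 lay above, where 18.3% and 14.3% of all genes did. The median change of the 9 was −0.13, against −0.01 over all genes.

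**Figure D1:**
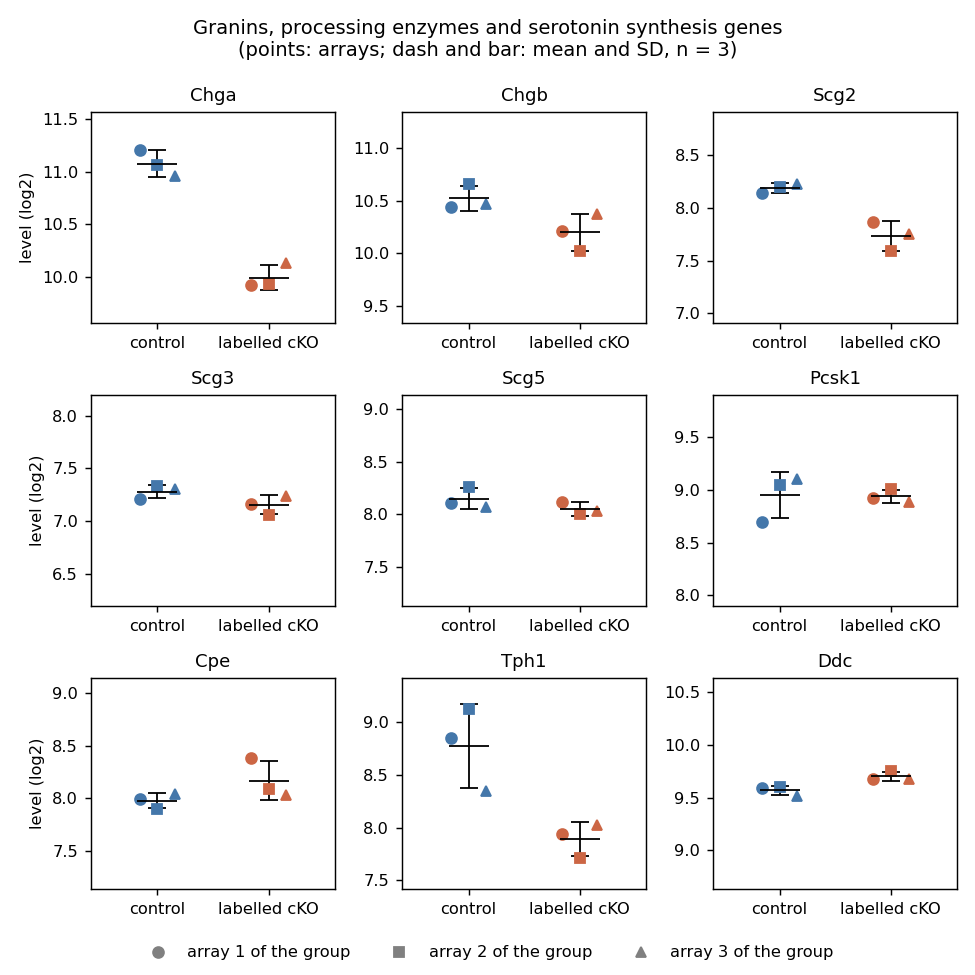
Level (log2) of each of the 9 measured genes on every array, with control arrays on the left and arrays labelled cKO on the right of each panel, each panel spanning at least 2 log2 units. Points are single arrays, and the dash and bar give the mean and SD (n = 3). Chga, Scg2, Chgb and Tph1 have no overlap between groups on the low side, Ddc lies slightly higher without overlap, and the other 4 genes overlap.

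Chga encodes chromogranin A, the acidic granule protein used most widely as an endocrine marker. Its level was 11.21, 11.06 and 10.96 on the control arrays and 9.92, 9.93 and 10.13 on the arrays labelled cKO. All 3 arrays labelled cKO lay about a unit lower, and the gap was larger than the spread within either group. The change was −1.08 ± 0.10, which is 2.12-fold lower (adjusted p = 0.00137). The call held in all 17 alternative analyses, with changes between −1.15 and −1.02.

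Chgb encodes chromogranin B, the other major chromogranin of the granule core. Its level was 10.44, 10.66 and 10.47 on the control arrays and 10.21, 10.02 and 10.37 on the arrays labelled cKO. The groups did not overlap, but cKO 3 came within 0.1 of the lowest control. The change was −0.32 ± 0.12 and was not called (adjusted p = 0.132), with a 95% confidence interval of −0.60 to −0.05 before adjustment for many genes. Taken within each array, the Chga change was 0.76 further down than the Chgb change. The exact two-sided permutation test gave p = 0.1, the smallest that 3 against 3 arrays allow and so unable to pass the threshold, and also 0.1 after adjustment over the 3 pairs compared.

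Scg2 encodes secretogranin II, a granule protein and the precursor of the peptide secretoneurin. Its level was 8.14, 8.2 and 8.23 on the control arrays and 7.87, 7.59 and 7.75 on the arrays labelled cKO. The controls lay close together and every array labelled cKO was below them. Scg2 changed by −0.45 ± 0.092, or 1.37-fold lower (adjusted p = 0.024). It missed the threshold when cKO 3 or any 1 of the controls was left out (adjusted p up to 0.0877), and likewise without control 3 and cKO 2 together (change −0.36, adjusted p = 0.118). With the replicate block Scg2 missed it too (adjusted p = 0.0852).

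Scg3, which tethers granins to the granule membrane, was at 7.21, 7.33 and 7.3 on the control arrays and at 7.16, 7.06 and 7.24 on the arrays labelled cKO. The groups overlapped, and the change of −0.13 ± 0.08 was not called (adjusted p = 0.385, 95% confidence interval −0.32 to 0.07). The Scg2 change was 0.33 further down than the Scg3 change, again with the smallest p the exact permutation test allows (0.1, and 0.1 adjusted). No background is known, so the Scg3 change may be understated, as may those of other genes, which was not tested. Scg5, also called 7B2, is the chaperone that keeps the convertase PC2 inactive until it reaches the granule. It overlapped between groups, at 8.07 to 8.26 on the controls and 8 to 8.12 on those labelled cKO, changing by −0.10 ± 0.083 (adjusted p = 0.522).

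The processing enzymes showed no called change. Pcsk1 encodes PC1/3, the convertase that cuts proglucagon and other gut prohormones. Its level was 8.7, 9.05 and 9.1 on the control arrays and 8.92, 9.01 and 8.89 on the arrays labelled cKO. The arrays labelled cKO lay inside the range of the controls, where control 1 was the lowest of all 6. The change was −0.01 ± 0.12 (adjusted p = 0.973), and its 95% confidence interval of −0.30 to 0.28 leaves out a fall of the size seen for Chga. Cpe, carboxypeptidase E, removes the basic residues that the convertases leave. It was at 7.99, 7.9 and 8.04 on the control arrays and at 8.38, 8.09 and 8.03 on the arrays labelled cKO, where cKO 1 was the highest and cKO 3 lay among the controls. Its change of 0.19 ± 0.11 was not called (adjusted p = 0.342, 95% confidence interval −0.08 to 0.46).

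Of the enzymes of serotonin synthesis Tph1 was called lower and Ddc was not called. Tph1 encodes tryptophan hydroxylase 1, the form used outside the brain. Its level was 8.85, 9.13 and 8.35 on the control arrays and 7.94, 7.71 and 8.03 on the arrays labelled cKO. Every array labelled cKO was below every control, yet the controls were spread widely and control 3 lay nearest to the other group. The change was −0.88 ± 0.20, which is 1.84-fold lower (adjusted p = 0.0376). Leaving out any 1 of the other 5 arrays ended the call (adjusted p up to 0.117), while without control 3 the change was −1.10 (adjusted p = 0.0144). Without control 3 and cKO 2 together it was −1.005 (adjusted p = 0.0152). With the replicate block the call was lost (adjusted p = 0.112).

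Ddc encodes aromatic L-amino acid decarboxylase, which converts 5-hydroxytryptophan to serotonin and is also present in absorptive enterocytes. Its level was 9.59, 9.6 and 9.52 on the control arrays and 9.68, 9.75 and 9.68 on the arrays labelled cKO. The groups did not overlap and the higher group was the one labelled cKO, but the distance was small. Ddc changed by 0.13 ± 0.069 and was not called (adjusted p = 0.282, 95% confidence interval −0.03 to 0.30). The changes of Tph1 and Ddc differed by 1.02, with an exact two-sided permutation p of 0.1 (0.1 adjusted over the 3 pairs), the smallest available, so the test cannot pass the threshold.

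The other genes of amine synthesis, storage, uptake and breakdown give the setting of the Tph1 fall. Of 18 listed, 16 were measured, and of these 3 fell, 2 rose and 11 were not called (median change −0.12). Calls over all genes made up 7.42% lower and 5.52% higher. Slc18a1 encodes VMAT1, the transporter that loads serotonin into the granules of enterochromaffin cells. It was at 11.37, 11.09 and 11.32 on the control arrays and at 10.22, 9.62 and 9.77 on the arrays labelled cKO, so the groups lay far apart. Slc18a1 fell by 1.39 ± 0.17 (2.62-fold lower, adjusted p = 0.0037). Slc18a2, the VMAT2 gene, overlapped between groups and changed by −0.14 ± 0.16 (adjusted p = 0.624).

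Slc6a4 encodes SERT, with which enterocytes take serotonin back up. Its level was 10.26, 10.38 and 10.35 on the control arrays and 8.69, 9.17 and 8.87 on the arrays labelled cKO. The lowest control lay about a unit above the highest array labelled cKO. The change was −1.42 ± 0.13, or 2.68-fold lower (adjusted p = 0.00129). Of the monoamine oxidases, which break amines down, Maob and Maoa moved in opposite directions. Maob was at 12.6, 12.65 and 12.81 on the control arrays and at 9.76, 10.55 and 10.41 on the arrays labelled cKO, and fell by 2.45 ± 0.21 (adjusted p = 0.00099). Maoa was at 7.67, 7.47 and 7.44 on the control arrays and at 8.18, 8.19 and 8.16 on the arrays labelled cKO, and rose by 0.65 ± 0.085 (adjusted p = 0.00473). The calls of Slc18a1, Slc6a4, Maob and Maoa held in every alternative run on them.

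Hdc, which makes histamine, was the other amine gene that rose, by 0.38 ± 0.082 (adjusted p = 0.0294), which missed the threshold whenever 1 array was left out and without control 3 and cKO 2 (change 0.375, adjusted p = 0.124). The Hdc result was named after its values were seen, as were the following. The genes for the tetrahydrobiopterin cofactor of TPH1 were not called: Gch1, which starts its synthesis, changed by −0.29 ± 0.13 (adjusted p = 0.216). Pts, which acts next, changed by −0.19 ± 0.075 (adjusted p = 0.163). Spr and Qdpr, which complete and recycle the cofactor, changed by 0.05 ± 0.095 and −0.10 ± 0.11. Tph2, the form used in neurons, had a mean of 6.53 in both groups.

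**Figure D2:**
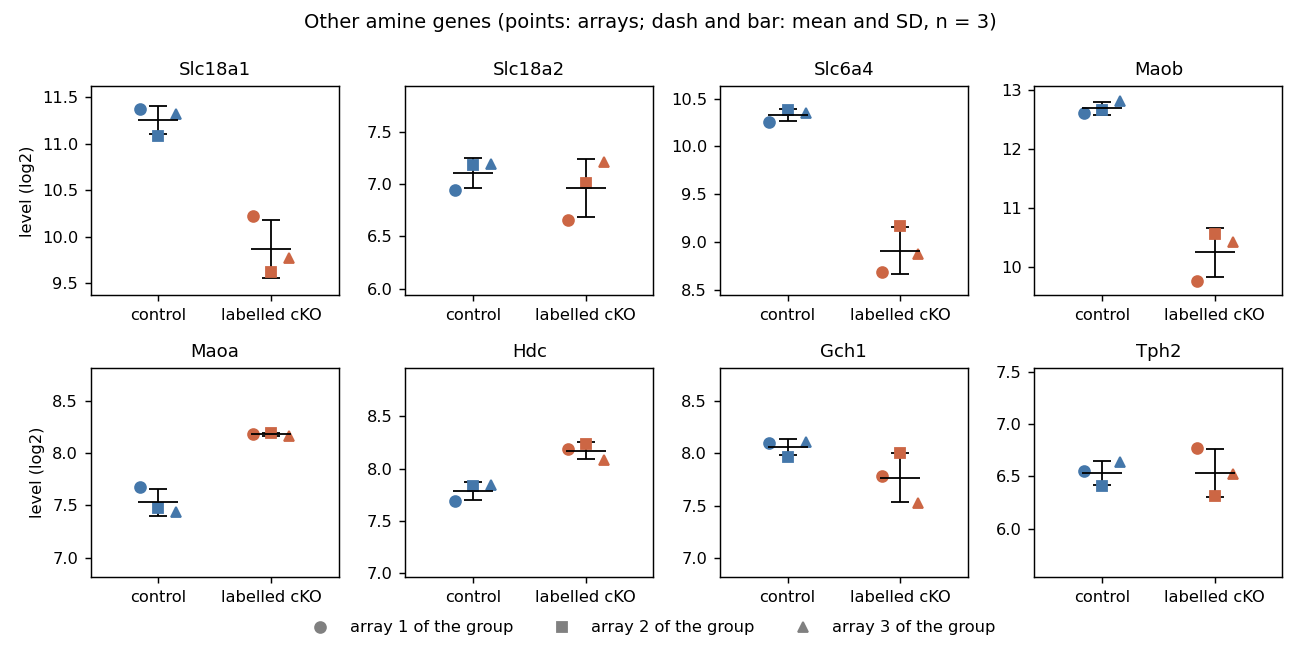
Level (log2) of 8 other amine genes on every array, controls on the left and arrays labelled cKO on the right, with the mean and SD (n = 3) as dash and bar. Slc18a1, Slc6a4 and Maob lie lower on every array labelled cKO than on any control, Maoa and Hdc lie higher, and Slc18a2, Gch1 and Tph2 overlap.

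Among 10 other prohormone processing genes 3 fell and 2 rose (median change −0.24), where 7.42% and 5.52% of all genes did. This list leaves out Pcsk1, Pcsk2 and Cpe, which belong to the genes described first. Ctsl, cathepsin L, a lysosomal protease that can also process prohormones, fell by 1.65 ± 0.16. Pcsk4, a convertase known from germ cells, was at 10.03, 10 and 10.46 on the control arrays and at 8.76, 8.67 and 8.63 on the arrays labelled cKO, and fell by 1.48 ± 0.14 (adjusted p = 0.00133). Pcsk5, a convertase with broad expression, fell by 0.58 ± 0.10 (adjusted p = 0.0143), a call lost without control 3 and cKO 2 together (change −0.44, adjusted p = 0.0614). Cpd, a carboxypeptidase of the trans-Golgi network with the same specificity as carboxypeptidase E, rose by 0.66 ± 0.11 (adjusted p = 0.0106). Pcsk7, a trans-Golgi convertase named after its values were seen, rose by 0.44 ± 0.092, and its call was lost in 8 of 17 alternatives, among them the fit without control 3 and cKO 2 (change 0.535, adjusted p = 0.0506). Pam, which amidates the ends of peptides such as those of Cck and Pyy, lay below the controls on all 3 arrays labelled cKO but was not called (−0.25 ± 0.09, adjusted p = 0.139). Furin, the ubiquitous convertase, changed by −0.31 ± 0.13 (adjusted p = 0.208).

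Of 35 other genes of granule cargo, membrane and release, 32 were measured, and 7 rose, 2 fell and 23 were not called (median change 0.06). The shares called over all genes were 5.52% higher and 7.42% lower. By the size of the change the rises began with Rab27b, Rab27a and Hid1. Rab27b, a small GTPase of vesicle docking, was at 8.84, 8.66 and 8.48 on the control arrays and at 10.04, 9.84 and 9.89 on the arrays labelled cKO, and rose by 1.26 ± 0.11 (2.40-fold, adjusted p = 0.0012). Rab27a, its close relative, rose by 1.22 ± 0.11 and Rab3d, known from exocrine secretory granules, by 0.79 ± 0.072. The other Rab genes of the list, Rab3a, Rab3b, Rab3c and Rab26, were not called, with changes no further from 0 than the −0.07 of Rab3c. Hid1, needed for the formation of dense-core granules, rose from 9.02, 8.86 and 8.73 to 10.13, 9.95 and 10.17 (1.21 ± 0.11, adjusted p = 0.00107). Rab27a, Rab27b, Rab3d and Hid1 kept their call in the 17 alternatives. These genes also serve secretory cells other than endocrine ones, and the arrays do not show in which cells their levels differed.

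The other calls of this list, named after their values were seen except Rph3al, went both ways. Ptprn2, a phosphatase-like protein of the granule membrane, rose by 0.73 ± 0.10 and Nucb2, the nesfatin precursor, by 0.65 ± 0.095. Sytl4, granuphilin, which links granules to the plasma membrane, rose by 0.53 ± 0.10 (adjusted p = 0.0203), with its call lost in 6 of 15 alternatives (without control 3 and cKO 2 the change was 0.605, adjusted p = 0.062). Snap25, a SNARE protein of exocytosis, fell by 0.55 ± 0.091 (adjusted p = 0.011), a call lost without control 2 or with the replicate block (adjusted p up to 0.0601). Rph3al, also called Noc2, a Rab effector of endocrine granule release, fell by 0.75 ± 0.14 (adjusted p = 0.0183). Its call was lost without control 1 or control 2 and with the replicate block (adjusted p up to 0.0834). Ptprn, the relative of Ptprn2 also known as IA-2, changed by −0.23 ± 0.069 and was not called (adjusted p = 0.0853). Vgf, a granin-like cargo protein, changed by −0.04 ± 0.097.

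**Figure D3:**
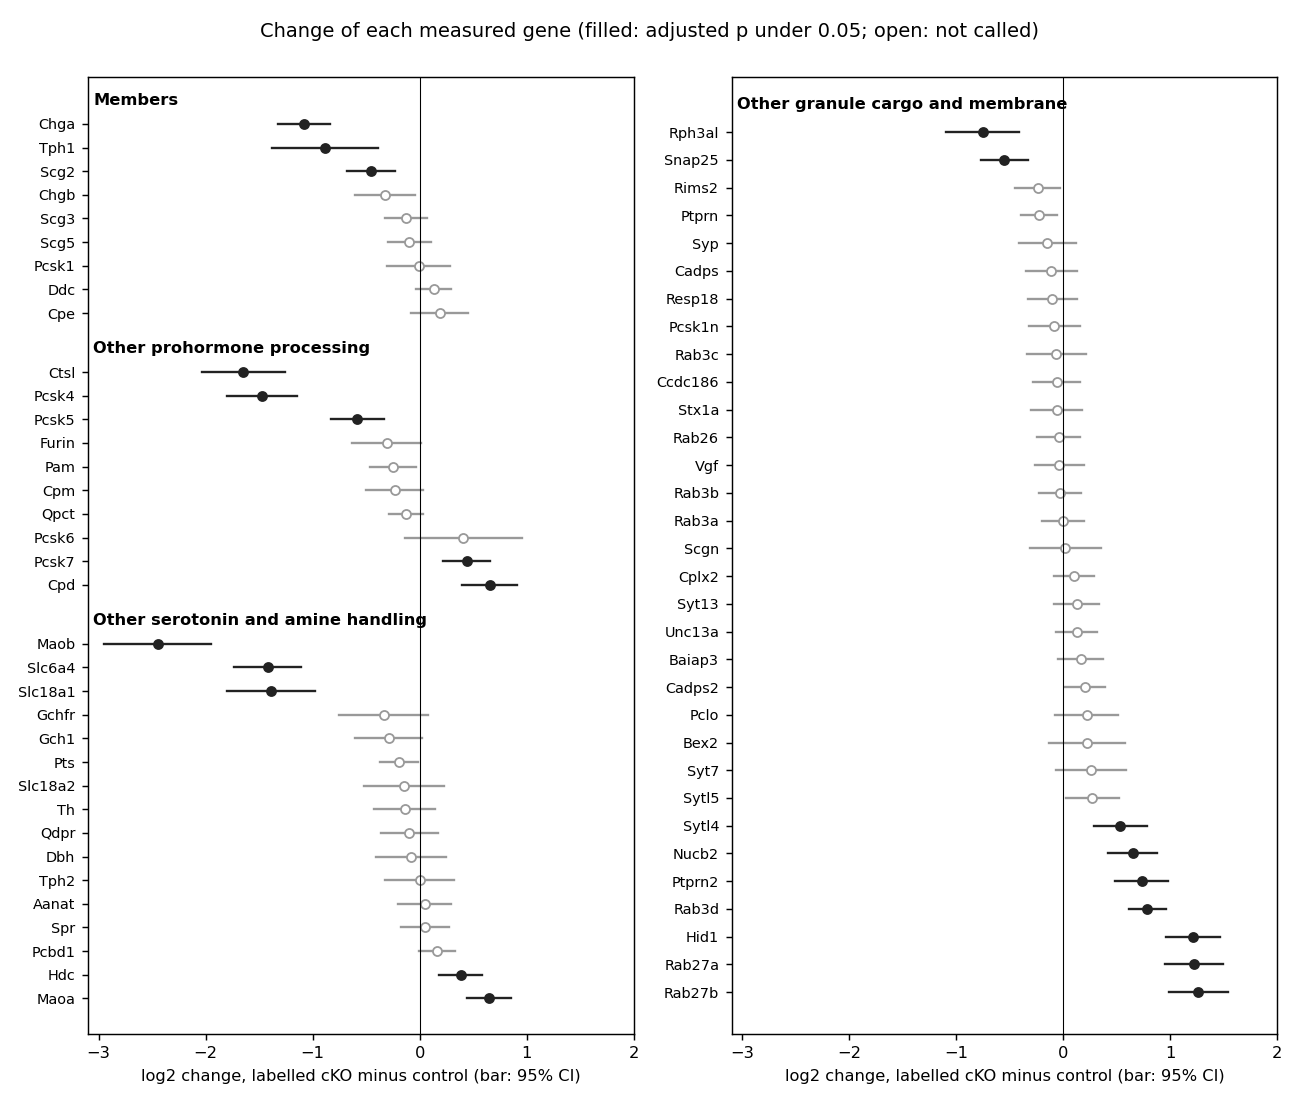
Log2 change (labelled cKO minus control) of each measured gene with its 95% confidence interval from the limma fit, the 9 listed genes, other processing genes and other amine genes on the left and other granule genes on the right. Filled points were called at an adjusted p under 0.05. The called granule genes lie mostly to the right of 0 (7 higher, 2 lower), while the 3 called genes of the top left block lie to the left.

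The hormones that share these granules were mostly lower as well. Of 14 gut peptide hormone genes 8 fell, 1 rose and 5 were not called (median change −0.45), with 5 falls instead of 8 without any 1 control array. Among all genes 7.42% were called lower and 5.52% higher. Without control 3 and cKO 2 together 6 fell and 0 rose under limma. Gip, Cck, Tac1, Pyy and Insl5 kept their fall in every alternative run. Gip changed most, by −1.93 ± 0.30 (adjusted p = 0.0087). Cck, Tac1, Pyy and Insl5 changed by −1.20 ± 0.15, −1.76 ± 0.18, −0.94 ± 0.11 and −0.71 ± 0.071. The remaining falls were Gcg (−1.1 ± 0.24, adjusted p = 0.0313), Sst (−0.55 ± 0.13, adjusted p = 0.0427) and Gast (−0.35 ± 0.085, adjusted p = 0.0442). Their calls were lost in 5, 10 and 9 of 17 alternatives. For Sst and Gast these include the fit without control 3 and cKO 2 (changes −0.47 and −0.43, adjusted p = 0.203 and 0.0796). Sct, the secretin gene, had a mean of 10.17 in both groups and Ghrl, ghrelin, changed by −0.18 ± 0.12 (adjusted p = 0.39). Iapp, the 1 hormone gene that rose, changed by 0.77 ± 0.15, and its call was lost in 5 of 16 alternatives, among them the fit without control 3 and cKO 2 (change 0.565, adjusted p = 0.0843). Gip, Gcg, Sst, Gast, Sct, Ghrl and Iapp were named after their values were seen.

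Of 16 endocrine transcription factor genes 13 were measured, of which 2 fell and 0 rose under limma (3 and 1 at an unadjusted p under 0.05). Limma called 7.42% of all genes lower and 5.52% higher. Neurod1, which drives endocrine maturation, was at 8.46, 8.41 and 8.09 on the control arrays and at 7.46, 7.17 and 7.74 on the arrays labelled cKO, and fell by 0.86 ± 0.17 (adjusted p = 0.0218). Neurod1 missed the threshold when control 1, control 2 or cKO 1 was left out, and with the replicate block (adjusted p up to 0.0851). Pax6 fell by 0.56 ± 0.13 (adjusted p = 0.0335), a call lost without control 3 and cKO 2 together (change −0.395, adjusted p = 0.098), without any 1 array but cKO 2, and with each array centred on its median. Insm1 overlapped between groups and changed by −0.15 ± 0.084 (adjusted p = 0.313). Neurog3, which sets the endocrine fate, also overlapped, with 7.73 to 8.01 on the controls and 7.2 to 7.78 on the arrays labelled cKO (−0.47 ± 0.17, adjusted p = 0.132).

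By the root mean square difference of levels over the 6 arrays, each gene centred on its own mean, the genes most like Chga were Pde6a (0.067), Ccnjl (0.068) and Tmem236 (0.079). The genes most like Tph1 were Rph3al (0.13), Osbpl3 (0.14) and Neurod1 (0.16). The likeness reflects mainly the shared step between the groups. With 6 arrays and 19938 genes it is a description only.

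Granins and the amine genes are also made by cells other than gut endocrine cells, so markers of those cells are given beside the falls. The calls in these lists stand beside 7.42% called lower and 5.52% called higher over all genes. Of 12 measured genes of enteric neurons and glia, which also hold granins, 1 was lower and 0 higher under limma (3 and 1 at an unadjusted p under 0.05), and the summed level was 11.76 to 11.86 on the controls and 11.28 to 11.41 on the arrays labelled cKO. The gene that fell was Ret, a receptor tyrosine kinase (−1.40 ± 0.20, adjusted p = 0.00639). The neuronal genes Elavl4, Prph and Hand2 overlapped between groups, with changes of 0.10 ± 0.11, 0.04 ± 0.072 and −0.03 ± 0.09. Others of the list differed further without being called on the 6 arrays, and are named after their values were seen. Tubb3, a neuronal tubulin, changed by −0.56 ± 0.19 and lay lower on all 3 arrays labelled cKO (adjusted p = 0.12, and 0.0283 without cKO 3). The neurofilament genes Nefm and Nefl changed by −0.48 ± 0.20 and −0.11 ± 0.07, and Stmn2, a neuronal stathmin, by 0.71 ± 0.23 (adjusted p = 0.11, and 0.0403 without cKO 1). Ret and Tubb3 had the highest levels of this list and weigh most in its sum. Of its 12 changes 8 were below 0 and 4 above, with a median of −0.07. For pancreatic islets, 0 of 6 measured genes were called by limma, also at an unadjusted p under 0.05, and the summed level was 10.93 to 11.51 on the controls and 11.08 to 11.65 on the arrays labelled cKO. None of the values of these lists was 0, and no detection call exists to place them above or below background.

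Mast cells, which also make serotonin through TPH1, were covered by 8 genes, of which 1 was higher and 0 lower under limma (2 and 0 at an unadjusted p under 0.05). Their summed level was 10.26 to 10.52 on the controls and 10.91 to 11.01 on the arrays labelled cKO. The gene that rose was Kit (1.47 ± 0.13, adjusted p = 0.00103), while the protease genes Cpa3 and Mcpt4 overlapped between groups, with changes of −0.04 ± 0.25 and −0.17 ± 0.14. Kit had the highest level of the list and weighs most in its sum, while the median change of the 8 genes was 0.002. The list of smooth muscle and mesenchyme had a summed level of 11.58 to 12.01 on the controls and 12.17 to 13.21 on the arrays labelled cKO, with 0 of 10 genes called by limma, although 7 were higher and 1 lower at an unadjusted p under 0.05. The epithelial list stood at 15.33 to 15.37 and 15.47 to 15.62, with 3 of 9 genes called higher and 0 lower by limma (5 and 0 at an unadjusted p under 0.05). The exocrine pancreas list (9 genes) ran from 11.03 to 14.2 on the controls and from 12.83 to 14 on the arrays labelled cKO. The erythroid list (5 genes) ran from 10 to 11.62 and from 9.67 to 13.58, the immune list (8 genes) from 11.33 to 11.77 and from 10.64 to 12.76, and the endothelial list (7 genes) from 10.18 to 10.77 and from 9.77 to 11.42. In the last 3 of these lists cKO 2 was the highest of the 6 arrays. Among the immune genes 1 was called lower and 1 higher. In the exocrine, erythroid and endothelial lists limma called 0, also at an unadjusted p under 0.05, and in the hepatocyte list it called 0, with 1 higher at that level. The part of these other cells in the falls of Chga, Scg2 and Tph1 was not tested.

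**Figure D4:**
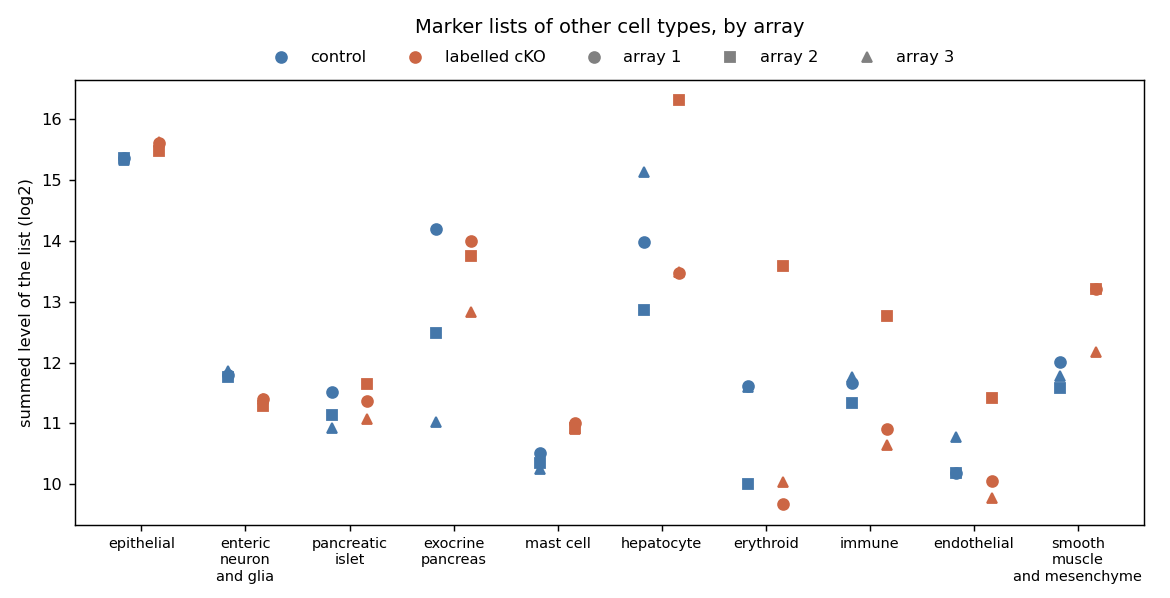
Summed level of each cell type marker list on every array (log2 of the sum over its measured genes), blue for control and orange for labelled cKO, with the symbol giving the array number. The hepatocyte list spans 12.87 to 16.31 with control 3 and cKO 2 on top, and the neuron and glia list lies at most at 11.41 on the arrays labelled cKO and at least at 11.76 on the controls. Ret and Tubb3 weigh most in the neuron and glia sum, and Kit in the mast cell sum.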

How the data were processed

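RNA of 6 samples was measured on Affymetrix Mouse Gene 1.0 arrays. The deposited values are 1 log2 level per probe set and array, made by the authors in dChip (per the series text) with a version and settings that the sources used here do not give. The log base was read from the values. Array medians ran from 7.73 to 7.84, and the number of arrays limits the precision. No 2 arrays held the same values.

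Probe sets with exactly 1 gene symbol in the platform annotation were used (21789 of 35512), and the one with the highest mean level stood for a gene. Groups came from the source names. Levels were fitted with limma 3.58.1 (two-sided lmFit and eBayes without covariates or filters) in R 4.3.3 on all genes. Differences between paired genes were tested by exact permutation; the planned pair of Pcsk1 and Pcsk2 was not run. The procedure was tested on simulated data.

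The members and lists were chosen with earlier results of these data known. Named were all members, the 4 smallest p-values of each related list, 9 genes in any case, up to 3 markers per other cell type, and the 3 genes most like Chga and Tph1. Alternatives were other normalizations, a pseudocount of 32, filters, eBayes settings, array weights, the replicate block, other uses of probe sets and arrays left out.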

Additional observations from a re-analysis of the deposited data

How the results depend on the processing

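The calls of 24 of the 42 named genes past the threshold held in every alternative in which the gene was tested, among them Chga, Slc18a1, Slc6a4 and Maob, and 31 of the 37 others stayed uncalled. Of the 9 genes, the number called lower was 1 to 2 with 1 array left out and 2 with control 3 and cKO 2 left out together; the number called higher was 0 throughout. With the replicate block 1 of the 9 (Chga) was called lower, and over all genes 827 were lower and 622 higher, against 1479 and 1101 in the fit without it. Same-numbered arrays did not deviate together (correlations of −0.02, −0.42 and −0.18). With so few arrays, and with control 3 and cKO 2 standing apart, this check cannot exclude a pairing. The labels state none. Over all genes 844 to 1322 were lower and 629 to 959 higher with 1 array left out, and 878 and 708 without control 3 and cKO 2 together. No background is known for these arrays, so changes of genes with low levels may be understated. The cause of these differences, the fewer arrays used included, was not tested.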
